A study of Mus musculus with 2 samples.

Results

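Binding of HLF (hepatic leukemia factor), a DNA-binding protein of the PAR bZIP family, was examined at 9 mouse genes that set the pace of G1, the phase in which a cell commits to divide. They were the D cyclin genes Ccnd1, Ccnd2 and Ccnd3, the kinase genes Cdk4 and Cdk6, the CIP/KIP inhibitor genes Cdkn1a, Cdkn1b and Cdkn1c, and the INK4 inhibitor gene Cdkn2c. A peak was taken as near a gene when its centre lay inside the gene or within 100 kb of either end. By this rule 8 of the 3153 peaks of the FLAG-HLF list lay near the 9 genes, and 5 of the 9 genes had at least 1 peak.

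The peaks come from anti-FLAG chromatin immunoprecipitation and sequencing of wild-type LSK cells, the mouse marrow fraction without lineage markers that carries Sca-1 and c-Kit. The cells of the FLAG-HLF group received a pMX retrovirus that encodes 3xFLAG-tagged Hlf together with GFP, and those of the GFP-ctrl group a pMX virus that encodes GFP alone. Both groups, with 1 library each, started from 80000 cells and were kept for 5 days in OP9 medium with SCF at 50 ng/ml, IL-7 at 10 ng/ml, Flt3L at 10 ng/ml and IL-3 at 5 ng/ml. Peaks of FLAG-HLF cells alone were analysed here, so the 2 groups were not compared and no value below has a replicate. The tagged protein was made from the virus, and binding of the cells' own Hlf was not measured. The sources used here give neither age and sex of the mice nor the state of the cells after culture, and a peak list holds no marker level to check them by. Each peak is an interval of 400 bases with no height or significance, so depth is unknown, and a gene without a peak cannot be called unbound.

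D cyclins bind and activate CDK4 and CDK6, which phosphorylate the retinoblastoma protein and so release E2F factors that drive entry into S phase. INK4 proteins such as p18, the product of Cdkn2c, bind CDK4 and CDK6 themselves. The CIP/KIP proteins p21 (Cdkn1a), p27 (Cdkn1b) and p57 (Cdkn1c) bind complexes of cyclins and CDKs. In blood formation most stem cells rest outside the cycle, and the balance of CDK6 with p27 and p57 is known as one of the controls on that rest.

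Of the 8 peaks, that near Cdkn1a overlapped a promoter window, and that inside Cdk4 lay next to such a window without touching it. Both windows below run from 250 bases before to 50 bases after a transcription start that RefSeq lists in GRCm38.p6 (mm10), and both read 5′ to 3′ along the gene. The window of Stk38 at chr17:29007946-29008245, minus strand, is shown because the peak near Cdkn1a covered 257 of its 300 bases. Its capitals mark a PAR bZIP site. The window of Cdk4 at chr10:127063285-127063584, plus strand, is shown because the peak inside Cdk4 began 65 bases past its end. This window holds no base of the peak. Its capitals mark copies of the E-box CACGTG.
Stk38: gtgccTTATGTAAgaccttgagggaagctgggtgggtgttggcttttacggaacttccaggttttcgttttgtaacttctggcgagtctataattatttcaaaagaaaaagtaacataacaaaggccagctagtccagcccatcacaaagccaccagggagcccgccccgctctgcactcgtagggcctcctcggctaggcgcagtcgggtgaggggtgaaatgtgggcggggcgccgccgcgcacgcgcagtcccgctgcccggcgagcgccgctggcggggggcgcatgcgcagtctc
Cdk4: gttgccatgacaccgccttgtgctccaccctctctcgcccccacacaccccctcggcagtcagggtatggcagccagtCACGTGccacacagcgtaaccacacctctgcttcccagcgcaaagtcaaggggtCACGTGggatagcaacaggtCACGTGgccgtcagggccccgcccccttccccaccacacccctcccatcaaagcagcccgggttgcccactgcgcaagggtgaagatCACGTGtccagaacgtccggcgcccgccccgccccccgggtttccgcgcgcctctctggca

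The 2 kinase genes were the members that held peaks, and between them they had 5 of the 8. Peaks of the D cyclin and inhibitor genes lay farther off, with 1 each near Ccnd2, Cdkn1a and Cdkn1c at 82.8 to 89.9 kb. Ccnd1, Ccnd3, Cdkn1b and Cdkn2c had no peak within the limit. The members' share of 55.6% (5 of 9 genes, 95% exact Clopper-Pearson interval 21.2 to 86.3%) stood beside 36.5% of all 21779 coding genes placed on chromosomes. That interval covers counting error only and holds the share of all coding genes. The 9 genes are a chosen list and not random draws, so this is no test. A peak centre inside the gene was found for 2 of the 9 members, against 6.86% of all coding genes. That share is over genes of all lengths. It was 22.0% for coding genes 100 to 300 kb long, as Cdk6 is, and 1.23% for those under 10 kb, as Cdk4 is. The windows of the members spanned 2.15 Mb and held 3.72 peaks per Mb, and the joined windows of all coding genes on the autosomes and X held 1.61 peaks per Mb. These figures describe 1 list, and the difference was not tested.

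**Figure D1:**
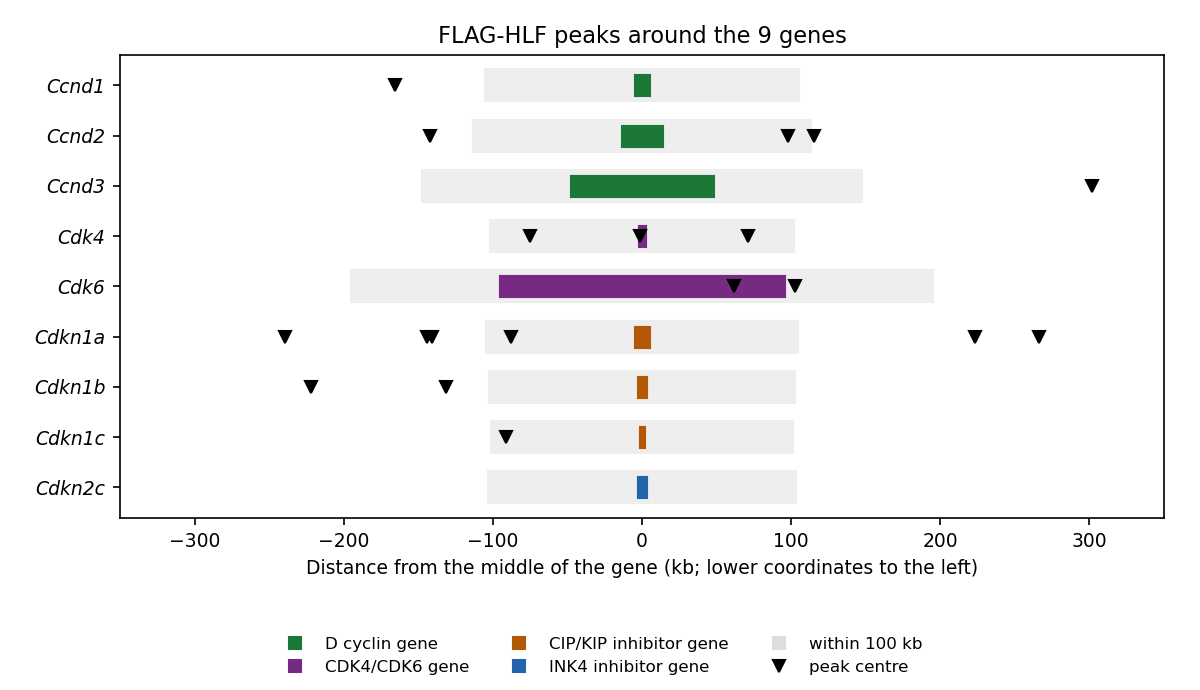
Peak centres (triangles) along the distance from the middle of each gene in kb, for the 9 genes in rows. Coloured bars are the genes and grey bands reach 100 kb beyond their ends. Peaks lie inside Cdk4 and Cdk6 only, while Cdkn2c has none in the plotted range, its nearest being 524 kb away.

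Cdk4, whose product pairs with each of the D cyclins, had 3 peaks in its window. The nearest lay inside the gene at chr10:127063649-127064048, centred 0.313 kb downstream of its start, and covered bases 114 to 513 past that start. The gene runs over 3.75 kb at chr10:127063535-127067288 on the plus strand, so this peak sat in its first part. Whether it falls in an exon or an intron was not determined, since the gene table gives no exons. The start of Marchf9, a membrane-bound ubiquitin ligase gene on the minus strand, lay 3.66 kb from the peak centre on the other side of the Cdk4 start. The 3′ end of Tspan31, a tetraspanin gene that meets Cdk4 tail to tail, lay 3.44 kb away. No coding gene was nearer to this peak than Cdk4, and no listed promoter window touched it.

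A peak inside a gene as short as Cdk4 was uncommon in the list. Among the 7860 coding genes under 10 kb long, 1.23% held a peak centre. Among the 17492 coding genes with a start in the promoter table, 0.680% had a peak centre in the first 1 kb downstream of a start. Both classes were chosen after the position of the Cdk4 peak was known, so they place this peak and test nothing. The Cdk4 window printed above held 4 copies of CACGTG, the E-box read by MYC and the clock factors among others. At least 1 copy was in 7.15% of the 32817 promoter windows, and 4 or more in 0.0244%. The Cdk6 window and 1 of the Cdkn2c windows held 1 copy each, and the other member windows none. The E-box was looked for after the sequence had been read, and the Cdk4 window shares no base with the peak.

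The other 2 peaks in the Cdk4 window were nearer to other genes. The peak at chr10:127136465-127136864 was 69.4 kb above Cdk4 and in no coding gene. It lay 15.5 kb upstream of the start of Os9, a lectin gene of the endoplasmic reticulum, and 28.5 kb from B4galnt1, and 8 coding genes were nearer to it than Cdk4. The peak at chr10:126990385-126990784 was 73.0 kb below Cdk4 and inside Ctdsp2, which encodes a small phosphatase, between Atp23 at 88.6 kb and Avil at 9.48 kb, with 7 coding genes nearer than Cdk4. Cdk4 lies in a crowded stretch, with 11 other coding genes in its window, and 3 or more peaks in the window were found at 3.75% of coding genes.

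Cdk6, which encodes the D cyclin kinase known for its part in blood cells, had 2 peaks, both toward the 3′ side of the gene. Cdk6 spans 190.0 kb at chr5:3341004-3531008 on the plus strand. The peak inside it, at chr5:3497450-3497849, was centred 154 kb downstream of the listed start and 33.4 kb before the end. The other peak, at chr5:3538504-3538903, was 7.70 kb past the end and 41.1 kb from the first one. It lay in the gap before Fam133b, 5.13 kb upstream of the start of that gene, which was therefore the nearer one. No peak lay at the Cdk6 promoter, whose window ended 154 kb before the first peak. Long genes held peaks more often than short ones: of the 1870 coding genes 100 to 300 kb long, 22.0% held a peak centre. With 2 or more peaks in the window, Cdk6 was in a class of 12.5% of coding genes. That share is over genes of all lengths, and the window of a long gene is wider.

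**Figure D2:**
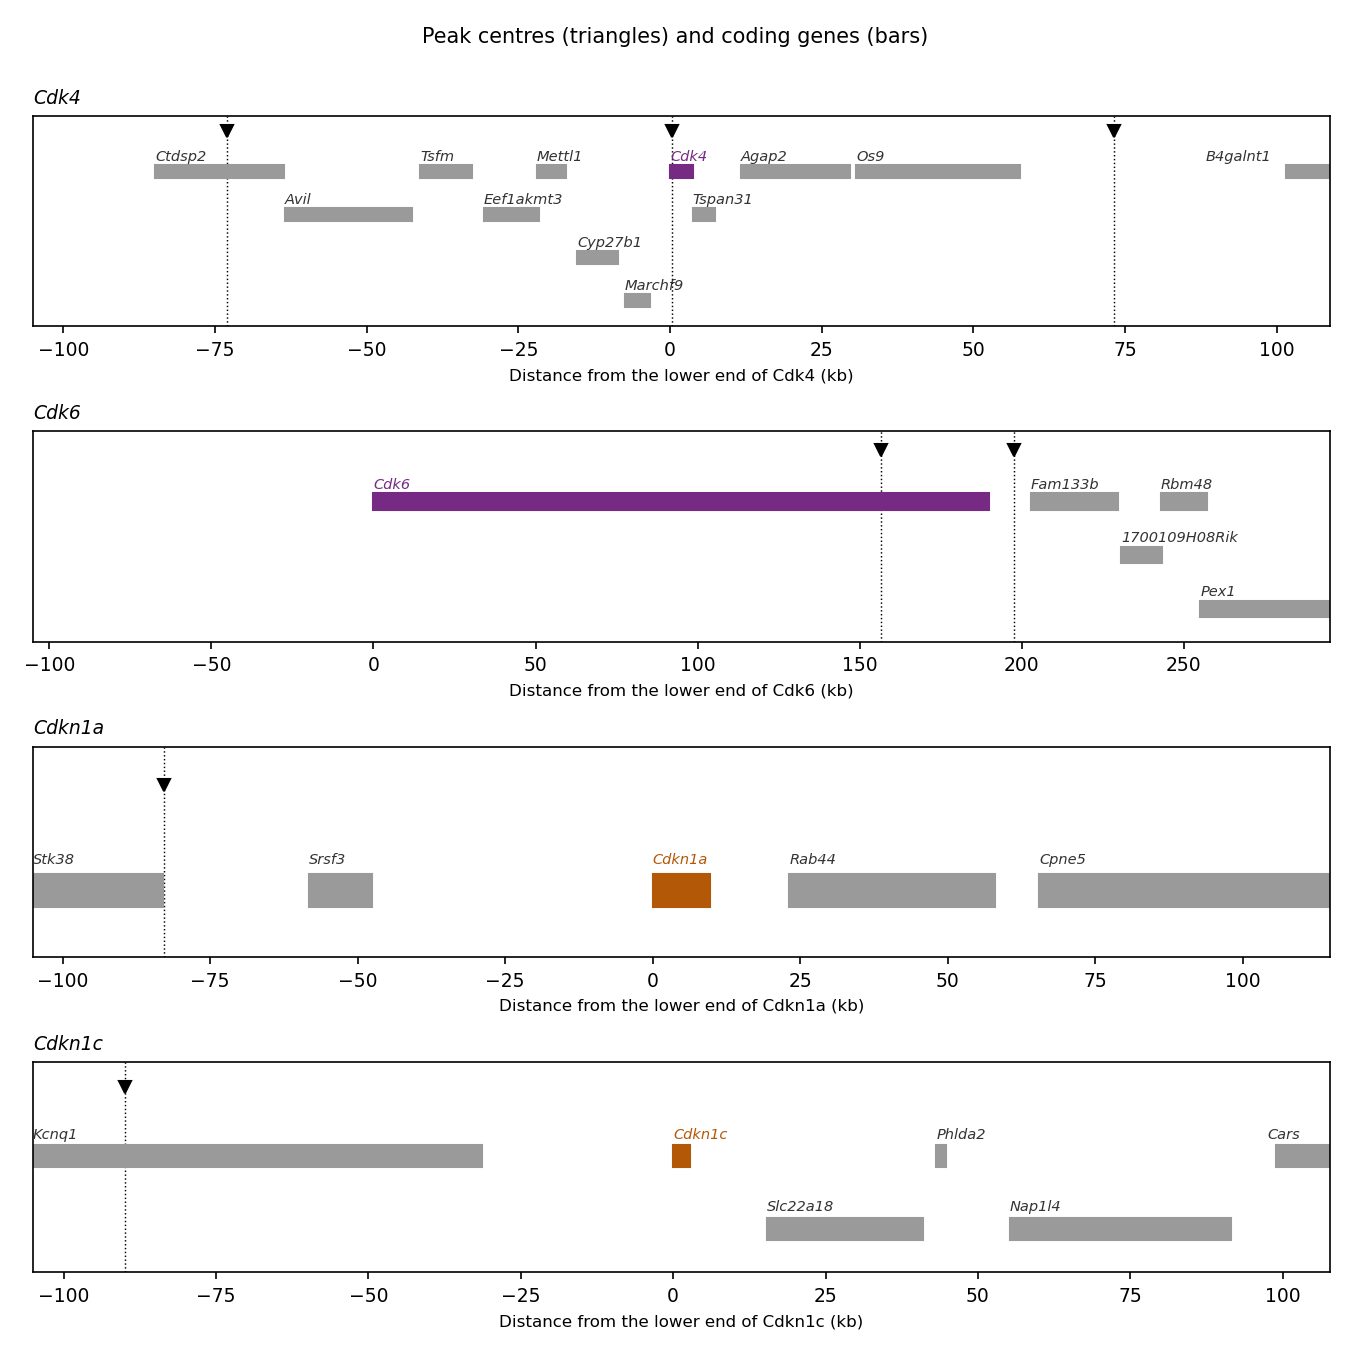
Peak centres (triangles and dotted lines) and coding genes (bars, the named member in colour) around Cdk4, Cdk6, Cdkn1a and Cdkn1c, by distance in kb from the lower end of the member gene. The peaks at the start of Cdk4, inside and just past Cdk6, at the edge of Stk38 and inside Kcnq1 can be seen, and genes reaching beyond the plotted range are trimmed.

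Among the D cyclins only Ccnd2 had a peak within 100 kb. Ccnd2, a D cyclin made in many blood cells, lies at chr6:127125162-127152188. Its peak at chr6:127236551-127236950 was 84.6 kb above the gene, inside no gene of the table. Although far, Ccnd2 was the only coding gene within 100 kb of it, and the next gene above, Parp11, began 210.1 kb away. Another peak, at chr6:127254021-127254420, lay 17.5 kb beyond the first and 102 kb from Ccnd2, just outside the limit. Both lay in the stretch of 295 kb without coding genes between Ccnd2 and Parp11. The noncoding gene 9330179D12Rik, which overlaps the upper end of Ccnd2 by 2.80 kb, ended 24.3 kb before the nearer peak; it was named after its position was seen. A further peak lay 129 kb below Ccnd2, between D6Wsu163e and Fgf6.

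Ccnd1, the D cyclin gene at chr7:144929931-144939831, had its nearest peak 161 kb below it at chr7:144768886-144769285. That peak was inside the noncoding gene D930030F02Rik, 17.1 kb beyond the 5′ boundary of Ano1, which encodes a chloride channel, and 69.5 kb from Fgf3, and 3 coding genes were within 100 kb of it. Ccnd3, at chr17:47505051-47599689 on the plus strand, had its nearest peak 254 kb above it at chr17:47853728-47854127. It lay between Mdfi (19.2 kb away) and Foxp4, a forkhead factor gene (13.2 kb away). Of all coding genes, 46.9% had a peak as close as that of Ccnd1 and 57.7% one as close as that of Ccnd3.

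The inhibitor genes had no peak inside or within 80 kb. Cdkn1a, the p21 gene that p53 induces, lies at chr17:29090979-29100722 on the plus strand. Its peak at chr17:29007989-29008388 was centred 82.8 kb upstream of its first listed start and in no coding gene. The peak sat at the start of another gene: its centre was 0.193 kb upstream of the listed start of Stk38, which encodes a kinase of the NDR family, and it reached 6 bases past that start. Srsf3, a splicing factor gene, lay between the peak and Cdkn1a, and in all 4 coding genes were nearer to the peak than Cdkn1a. Further peaks below Cdkn1a lay at 136 and 139 kb, outside the limit.

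The Stk38 window held the PAR bZIP spelling TTATGTAA 245 to 238 bases upstream of its start, inside the peak and 45 bases from the peak centre. Promoter windows were searched on both strands for the PAR bZIP sites TTACGTAA and TTATGTAA (TTACATAA is the same site on the other strand), the C/EBP site TTGCGCAA, the AP-1 site TGACTCA, the CRE site TGACGTCA and the E2F sites TTTCGCGC and TTTGGCGC. None of these spellings contains another. Either PAR bZIP spelling was in 1.05% of all 32817 windows, and in 6.61% (15) of the 227 windows that a peak touched. The C/EBP site was in 2.64% of touched windows against 0.183% of all, the CRE site in 3.52% against 1.79%, the E2F sites in 1.76% against 0.814%, and the AP-1 site in 3.52% against 5.20%. These shares were not tested, and touched windows include bases outside the peaks. Of the 9 members 6 matched the promoter table, with 9 windows in all: 2 each for Ccnd3, Cdkn1a and Cdkn2c and 1 each for Cdk4, Cdk6 and Cdkn1b. None of these 9 windows held any of the motifs and none touched a peak, so the letters searched are not in those windows and nothing further follows. Ccnd1, Ccnd2 and Cdkn1c were not matched.

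Cdkn1c, the imprinted p57 gene that is active in resting stem cells, lies at chr7:143458339-143461059. Its peak at chr7:143368236-143368635 was 89.9 kb below it and was the member peak closest to the limit from inside. It lay within Kcnq1, a potassium channel gene of the same imprinted cluster, 58.6 kb from the nearer end of that gene. Kcnq1 was the only coding gene nearer to it than Cdkn1c, and Trpm5, the next gene below, was 274 kb away. Kcnq1ot1, the noncoding RNA of the cluster, which runs through another part of Kcnq1, was 71.9 kb from the peak; it was named after its position was seen.

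Cdkn1b, the p27 gene at chr6:134920401-134925525 on the plus strand, had no peak within the limit. Its nearest peak, at chr6:134791223-134791622, was 129 kb below it, inside Dusp16, a phosphatase gene of MAP kinase signalling, and 1.21 kb downstream of a listed start of that gene. The genes on either side of that peak were Borcs5 at 80.2 kb and Crebl2 at 38.7 kb. Cdkn2c, the p18 gene at chr4:109660876-109666756 on the minus strand, stood farthest from any peak, with the nearest 524 kb away at chr4:109136793-109137192 inside Osbpl9 and the noncoding gene Gm52703. It lay between Nrd1 at 75.2 kb and Calr4 at 81.4 kb. Of all coding genes, 41.8% had a peak as close as that of Cdkn1b and 73.1% one as close as that of Cdkn2c.

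The order of the 9 genes by nearest peak was Cdk4 and Cdk6 with a peak inside, then Cdkn1a at 82.8 kb, Ccnd2 at 84.6 kb, Cdkn1c at 89.9 kb, Cdkn1b at 129 kb, Ccnd1 at 161 kb, Ccnd3 at 254 kb and Cdkn2c at 524 kb. The median was 89.9 kb, against 179 kb over the coding genes on chromosomes that hold a peak. Without replicates no spread can be set beside these distances. A peak as close as that of Cdkn1a was found for 32.5% of coding genes, as close as that of Ccnd2 for 33.0%, and as close as that of Cdkn1c for 34.2%.

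**Figure D3:**
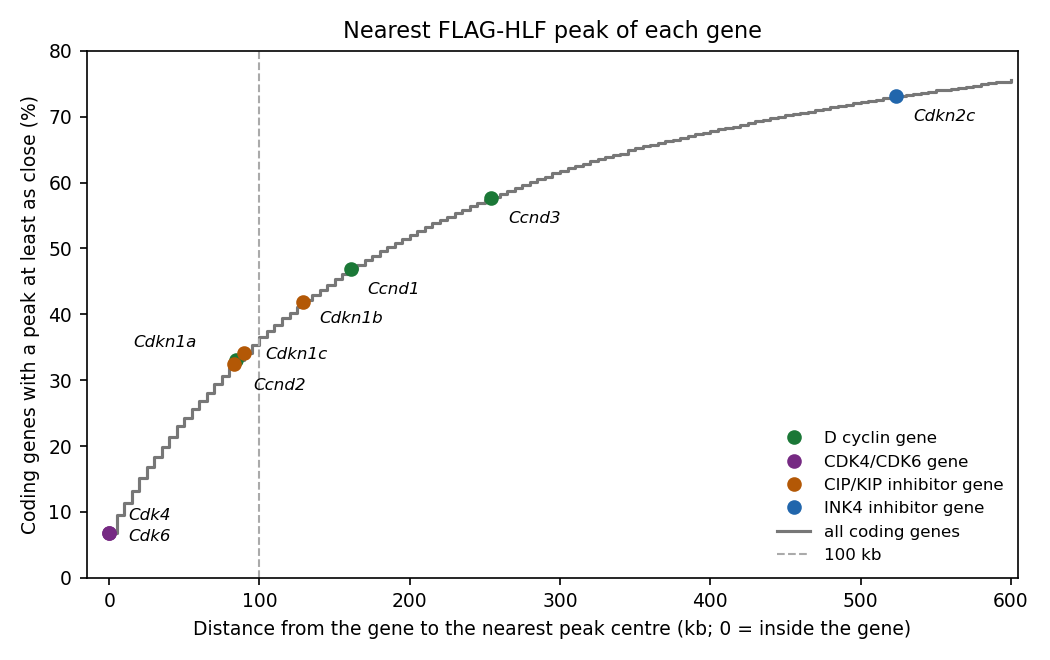
Percent of all coding genes with a peak at least as close (grey line, in steps of 5 kb) against the distance to the nearest peak centre in kb, with the 9 genes as points. Cdk4 and Cdk6 lie at 0 kb with 6.86% of coding genes, 3 genes lie just inside the dashed line at 100 kb, and 4 lie beyond it.

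Read over all 8 peaks, 3 had no coding gene nearer than the member: those inside Cdk4, inside Cdk6 and above Ccnd2. The other 5 had at least 1 nearer coding gene, and 2 of them were inside one, Ctdsp2 and Kcnq1. The 8 peaks were spread over the file, with 4 in its first 1576 lines and 4 in the other 1577, in an order that the sources used here do not explain.

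The wider G1/S machinery was read from a list of 36 further genes, 10 of which (27.8%, exact interval 14.2 to 45.2%) had a peak inside or within 100 kb, against 36.5% of all coding genes. Their median distance to a peak was 158 kb. The interval again treats chosen genes as independent draws, although Cdkn2a and Cdkn2b share a peak. Of the 3 other INK4 genes, Cdkn2a (which encodes p16 and p19Arf) and Cdkn2b (p15) had 1 peak between them, 62.1 and 93.9 kb away with Mtap nearer, and Cdkn2d had none. Of the 5 genes of cyclin E, cyclin A and CDK2, only Ccne2 had one, 37.8 kb away inside Ints8. Among the 3 pocket protein genes Rb1 had a peak at 70.2 kb with Rcbtb2 nearer, and Rbl1 and Rbl2 had none.

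Of the 10 genes of E2F factors and their partners, 2 had a peak. E2f8, which encodes a repressor of the E2F family, had one 1.69 kb past its upper end and 2.16 kb upstream of its listed start (chr7:48883560-48883959). No coding gene was nearer to this peak, which lay inside the noncoding gene Gm2788. Of all coding genes, 8.05% had a peak as close. Tfdp2, a partner of E2F factors, had one at 52.4 kb with Atp1b3 nearer. Mnat1, the assembly factor of the CDK-activating kinase, was the only one of its 3 subunit genes with a peak. It had 1 inside the gene at 78.1 kb from its listed start and 1 outside at 23.5 kb with Six4 nearer. Mnat1 spans 162 kb, against 33.9 kb for Cdk7 and 24.4 kb for Ccnh. Of coding genes 100 to 300 kb long, 22.0% held a peak centre. The 4 genes of inhibitor turnover (Skp2, Cks1b, Cul1, Fbxw7) and Cdc25a had none. With so few genes, the exact intervals of these classes hold 36.5% too. They ran from 0.840 to 90.6% for the CDK-activating kinase and from 0 to 60.2% for inhibitor turnover.

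Of 7 upstream regulators, Foxo1, Foxo3 and Trp53 had peaks (42.9%, against 36.5% of all coding genes). Foxo3, a factor that keeps stem cells at rest, held 1 peak 31.3 kb downstream of a listed start (chr10:42245208-42245607), and Foxo1 held 2. A peak centre inside the gene was found for 6.86% of coding genes of all lengths. The peak 79.6 kb from Trp53 lay inside Eif4a1, with 13 coding genes nearer. Myc, Mycn, Foxo4 and Gsk3b had none within 100 kb, and that nearest to Myc was 1658 kb away.

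**Figure D4:**
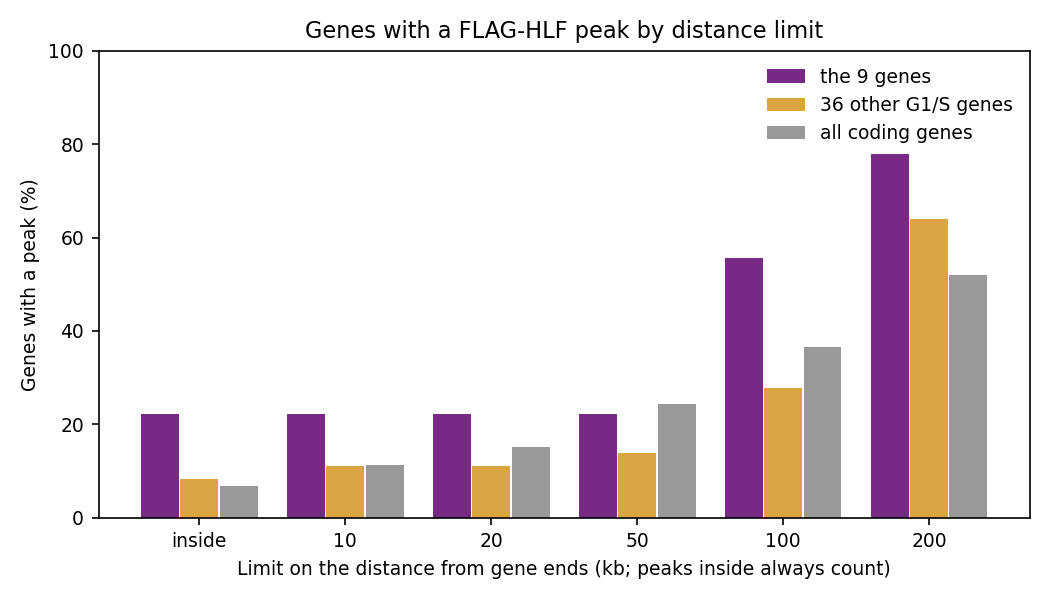
Percent of genes with a peak inside or within the distance limit on the x axis in kb, for the 9 genes, the 36 other G1/S genes and all coding genes. The 9 genes stay at 22.2% up to 50 kb, where all coding genes reach 24.3%, and stand at 55.6% at 100 kb, where all coding genes stand at 36.5%.

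The members' count followed the distance limit in steps. It was 2 of 9 (22.2%) inside genes and at limits of 10, 20 and 50 kb, 5 of 9 at 100 kb and 7 of 9 (77.8%) at 200 kb. All coding genes stood at 11.4%, 15.1%, 24.3% and 52.0% at limits of 10, 20, 50 and 200 kb. At 50 kb the 2 shares were close, at 22.2% for the members and 24.3% for all coding genes. With only 9 genes, the order of shares this close says nothing about the members. The step to 5 genes rests on the 3 genes with a peak between 80 and 90 kb.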

How the data were processed

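Anti-FLAG ChIP libraries of FLAG-HLF and GFP-ctrl LSK cells were made, 1 each. Per the submitters' processing notes the tools were MACS2, Bowtie2 and bedtools, and the genome mm10 (GRCm38); no role or version is stated. The authors deposited 1 list of 3153 peaks with 3 columns (other values: chromosome, start and end), each 400 bases wide. It holds no counts or scores, so depth is unknown. The sources used here give neither the peak threshold nor the background. A peak list of the GFP-ctrl library was not analysed here.

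Coordinates are from 1 in mm10, and the centre is the interval's 200th base. Gene bounds are those of the RefSeq table for GRCm38.p6. Of 21900 coding genes, 121 that lie on no chromosome or carry positions below 3 Mb, where mm10 autosomes and X hold no sequence, were left out. Promoter windows and strand came from a RefSeq table of the same build. Genome sequence was not used here, so peaks were not searched whole.

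The 9 genes, the 36 G1/S genes and the motifs were chosen with earlier results of these data known, so counts are descriptions beside all coding genes and no test was run. Named genes are the 9, those holding or flanking their peaks on each side, and every G1/S gene with a peak. Other neighbours, and some G1/S genes without a peak, were named after their values were seen. The distance step was tested on simulated data. Alternatives changed the limit, the peak's edge, the gene assignment, the lines and the background. Scripts ran on pandas 2.3.3 and numpy 2.4.6 under Python 3.11.15, with intervals from scipy 1.17.1 and plots from matplotlib 3.10.9.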

Additional observations from a re-analysis of the deposited data

How the results depend on the processing

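The number of the 9 genes with a peak (5) was 2 inside genes and at limits of 10, 20 and 50 kb, 7 at 200 kb, and 3 when each peak was given to 1 coding gene, by nearest end or by holder first, or when only the first 1576 or the other 1577 lines were used. The number of peaks near them (8) was 2 inside, 3 at 10, 20 and 50 kb, 14 at 200 kb, 3 with peaks given to 1 gene by either rule, and 4 in each of these sets of lines. The G1/S genes with a peak (10 of 36) numbered 3 inside, 4 at 10 and 20 kb, 5 at 50 kb, 23 at 200 kb, 3 by nearest end, 4 by holder first, and 6 in the first lines and 4 in the others. The percent of coding genes with a peak (36.5%) was 6.86% inside, 11.4%, 15.1%, 24.3% and 52.0% at 10, 20, 50 and 200 kb, 10.9% by nearest end, 11.1% by holder first, and 22.2% in the first lines and 21.7% in the others. It was 29.2% over genes of all kinds, 38.8% without olfactory and vomeronasal receptor genes and 38.4% on autosomes. The median distance of the 9 genes (89.9 kb) was 89.7 kb from peak edges, 161 kb in the first lines and 378 kb in the others. Fewer lines and narrower limits can only lower the counts and shares, and fewer lines can only lengthen the distances, by construction. Counting peaks by their nearest edge changed none of the 3 counts. No paired analysis was possible because each group has 1 library and 1 list was used. Leaving out a replicate was not possible either. With no read counts, depth could not be weighed.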
